A study of Homo sapiens with 60 samples.

Results

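The genes described are 9 ATP-binding cassette (ABC) exporters of drugs and conjugated metabolites: ABCC2, ABCB1, ABCG2, ABCB4, ABCC1, ABCC3, ABCC4, ABCC5 and ABCC6. They were chosen by symbol and matched by Ensembl identifier to 9 of the 60675 genes in the count table. ABC exporters are membrane proteins that bind and split ATP to push their substrates out of the cell. In a hepatocyte some of them (ABCB1, ABCB4, ABCC2 and ABCG2) lie in the canalicular membrane and empty into bile, and others (ABCC1, ABCC3, ABCC4, ABCC6) lie in the basolateral membrane and empty towards blood. They carry xenobiotics and the glutathione, glucuronide and sulphate conjugates made by the enzymes of drug metabolism, and several of their genes are known targets of xenobiotic sensors such as NRF2, the aryl hydrocarbon receptor (AHR) and the pregnane X receptor.

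Messenger RNA was sequenced in 60 libraries of HepG2, a single established line from a human liver tumour, collected after 24 h of exposure to hot-water extracts of medicinal plants. Citri Unshius Pericarpium, Cimicifugae Rhizoma, Bupleuri Radix, Aconiti Lateralis Radix Preparata and the mixtures Yijung-tang and Banhasasim-tang were each given at 20, 100 and 500 µg/mL, with 3 libraries a dose. The mixture Bojungikgi-tang had 1 library at each of those doses, and 3 libraries received the vehicle, 0.1% DMSO. All titles name the same batch, B, and the codes in them place Citri Unshius Pericarpium with Cimicifugae Rhizoma, Bupleuri Radix with Aconiti Lateralis Radix Preparata, and Yijung-tang with Banhasasim-tang in a set each, and the vehicle in a set that holds no extract. The low dose of the same extract was therefore the first comparison, extracts of 1 set were compared with each other, and in the comparisons with vehicle the code and the treatment cannot be told apart. What the codes stand for is not in the labels. Whether the replicates were separate cultures is not in the labels, and the p-values measure only how far these libraries spread.

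Depth and identity of the libraries were alike in most respects. Summed expected counts ranged between 17598646 and 30451640 per library. All 9 hepatic markers looked at were detected, and ALB (albumin) ranged between 6586 and 10274 CPM (counts scaled by library size). Of 7 markers of other cell types, CD68 (31.1 to 71.1 CPM) and PECAM1 (1.67 to 5.99 CPM) were detected in every library. COL1A1 and VWF were also detected in every library, at lower levels. COL3A1 and KRT7 had a median of 0 CPM, and PTPRC (CD45, the pan-leukocyte antigen) had 0 counts in 56 of 60 libraries. Vehicle replicate 2 held 152 PTPRC counts, against at most 1 in any other library. Genes of mitochondrial DNA took 17.8 to 18.3% of counts with Aconiti Lateralis Radix Preparata at 500 µg/mL, against 9.83 to 10.8% at 20 µg/mL, and 7.71 to 12.6% in the 51 libraries without that extract.

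The exporter genes are spread over 7 chromosomes of GRCh38. ABCC2 (ENSG00000023839) lies at chr10:99782640-99852594 on the plus strand, ABCG2 (ENSG00000118777) at chr4:88090264-88231322 on the minus strand, ABCC3 (ENSG00000108846) at chr17:50634777-50692252 on the plus strand, ABCC4 (ENSG00000125257) at chr13:95019829-95301475 on the minus strand and ABCC5 (ENSG00000114770) at chr3:183919934-184018015 on the minus strand. The others lie in pairs. ABCB1 (ENSG00000085563) at chr7:87503633-87713323 and ABCB4 (ENSG00000005471) at chr7:87401697-87480435 are both on the minus strand, while ABCC1 (ENSG00000103222) at chr16:15949577-16143074 is on the plus strand and ABCC6 (ENSG00000091262) at chr16:16148928-16223522 on the minus strand.

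Promoter windows from RefSeq (GRCh38.p14, 250 bases before to 50 bases after an annotated start) were matched by symbol for 6 of the 9 exporters, with 12 windows in all. ABCC1, ABCC3 and ABCB4 are named only. Both strands of each window were searched for TGACNNNGC, the core of the antioxidant response element bound by NRF2, and for GCGTG, the core of the xenobiotic response element bound by AHR. TGACNNNGC was found in 13.3% and GCGTG in 36.5% of all 35116 windows in the table, so that a match is a description of the letters and not a binding site. The windows below are shown because ABCC2, ABCB1 and ABCG2 have the 3 largest increases at 500 against 20 µg/mL and ABCC4 is the exporter with no call. Each reads 5′ to 3′ on the strand of its gene, with matches in capitals, on whichever strand they were found.
ABCC2 window, chr10:99782390-99782689, plus strand: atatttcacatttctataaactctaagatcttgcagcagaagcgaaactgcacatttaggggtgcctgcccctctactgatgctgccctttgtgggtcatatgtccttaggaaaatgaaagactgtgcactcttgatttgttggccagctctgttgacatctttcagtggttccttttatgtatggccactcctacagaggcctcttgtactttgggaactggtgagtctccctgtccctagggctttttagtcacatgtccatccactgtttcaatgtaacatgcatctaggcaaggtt
ABCB1 window 2, chr7:87600835-87601134, minus strand: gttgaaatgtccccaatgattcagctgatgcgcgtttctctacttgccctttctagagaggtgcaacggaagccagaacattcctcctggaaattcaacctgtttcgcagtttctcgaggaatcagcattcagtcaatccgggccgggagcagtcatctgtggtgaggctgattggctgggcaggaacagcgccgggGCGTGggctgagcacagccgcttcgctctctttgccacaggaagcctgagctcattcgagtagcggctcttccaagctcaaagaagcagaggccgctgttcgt
ABCG2 window 3, chr4:88159241-88159540, minus strand: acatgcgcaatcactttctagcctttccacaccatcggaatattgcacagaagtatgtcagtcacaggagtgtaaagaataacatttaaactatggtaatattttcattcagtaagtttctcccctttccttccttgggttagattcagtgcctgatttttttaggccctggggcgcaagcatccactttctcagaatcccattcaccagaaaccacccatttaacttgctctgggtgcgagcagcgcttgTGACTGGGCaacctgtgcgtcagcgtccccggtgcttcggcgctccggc
ABCC4 window, chr13:95301402-95301701, minus strand: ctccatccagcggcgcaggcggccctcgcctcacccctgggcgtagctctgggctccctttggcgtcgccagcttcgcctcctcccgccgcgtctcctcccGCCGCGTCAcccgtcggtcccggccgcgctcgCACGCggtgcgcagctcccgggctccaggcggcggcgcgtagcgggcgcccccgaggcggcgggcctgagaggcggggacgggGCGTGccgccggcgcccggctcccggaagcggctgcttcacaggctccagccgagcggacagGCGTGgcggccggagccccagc
The ABCC2 window held neither motif. The ABCC4 window held 1 TGACNNNGC and 3 GCGTG. ABCB1 and ABCG2 have several windows, and the one shown for each was picked after its matches were seen. ABCB1 window 2 held 1 GCGTG, while its window 1 held neither motif. ABCG2 window 3 held 1 TGACNNNGC and no GCGTG, while its windows 2, 4 and 5 each held 2 GCGTG and no TGACNNNGC, and its window 1 held neither.

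All 9 exporters passed the filter on low counts, with between 201 counts (ABCB4, its lowest library) and 22129 counts (ABCC2, its highest). Divided by exon length, ABCC2 was the most abundant, with a median of 47.7 CPM per kb over the 57 replicated libraries. ABCC1 followed at 20.1, ABCC6 at 13.2, ABCB1 at 12.2 and ABCC3 at 8.57 CPM per kb. ABCC5 at 3.02, ABCG2 at 2.62, ABCC4 at 2.15 and ABCB4 at 1.96 CPM per kb formed the low end. ABCB11, the bile salt export pump and not one of the 9, had 8 counts over all 60 libraries and was not tested.

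At 500 against 20 µg/mL, most of the exporters changed, and most changes were increases. A gene was called at a Benjamini-Hochberg adjusted p under 0.05 in edgeR's quasi-likelihood test over 16093 genes, and 34 of the 54 exporter tests passed, 27 higher and 7 lower. With Citri Unshius Pericarpium 3 of 9 exporters were called, against 1.65% of all genes tested. Cimicifugae Rhizoma gave 8 of 9 against 39.2% of all genes, Bupleuri Radix 6 of 9 against 18.8%, and Aconiti Lateralis Radix Preparata 8 of 9 against 37.2%. Yijung-tang gave 2 of 9 against 3.77%, and Banhasasim-tang 7 of 9 against 15.1%. The median log2 fold change of the 9 was 0.10 with Citri Unshius Pericarpium, 0.47 with Cimicifugae Rhizoma, 0.18 with Bupleuri Radix, 0.58 with Aconiti Lateralis Radix Preparata, 0.03 with Yijung-tang and 0.20 with Banhasasim-tang, beside a median of 0.00 over all genes in each of these 6 comparisons. In whole-culture RNA, fewer cells of a kind and less RNA per cell cannot be told apart. Without the genes of mitochondrial DNA in the library totals, all 225 exporter tests of the 25 comparisons kept their direction and their side of the threshold. The scaling factors were recalculated in that fit and can absorb a change in the totals, so this says little about the mitochondrial share.

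**Figure D1:**
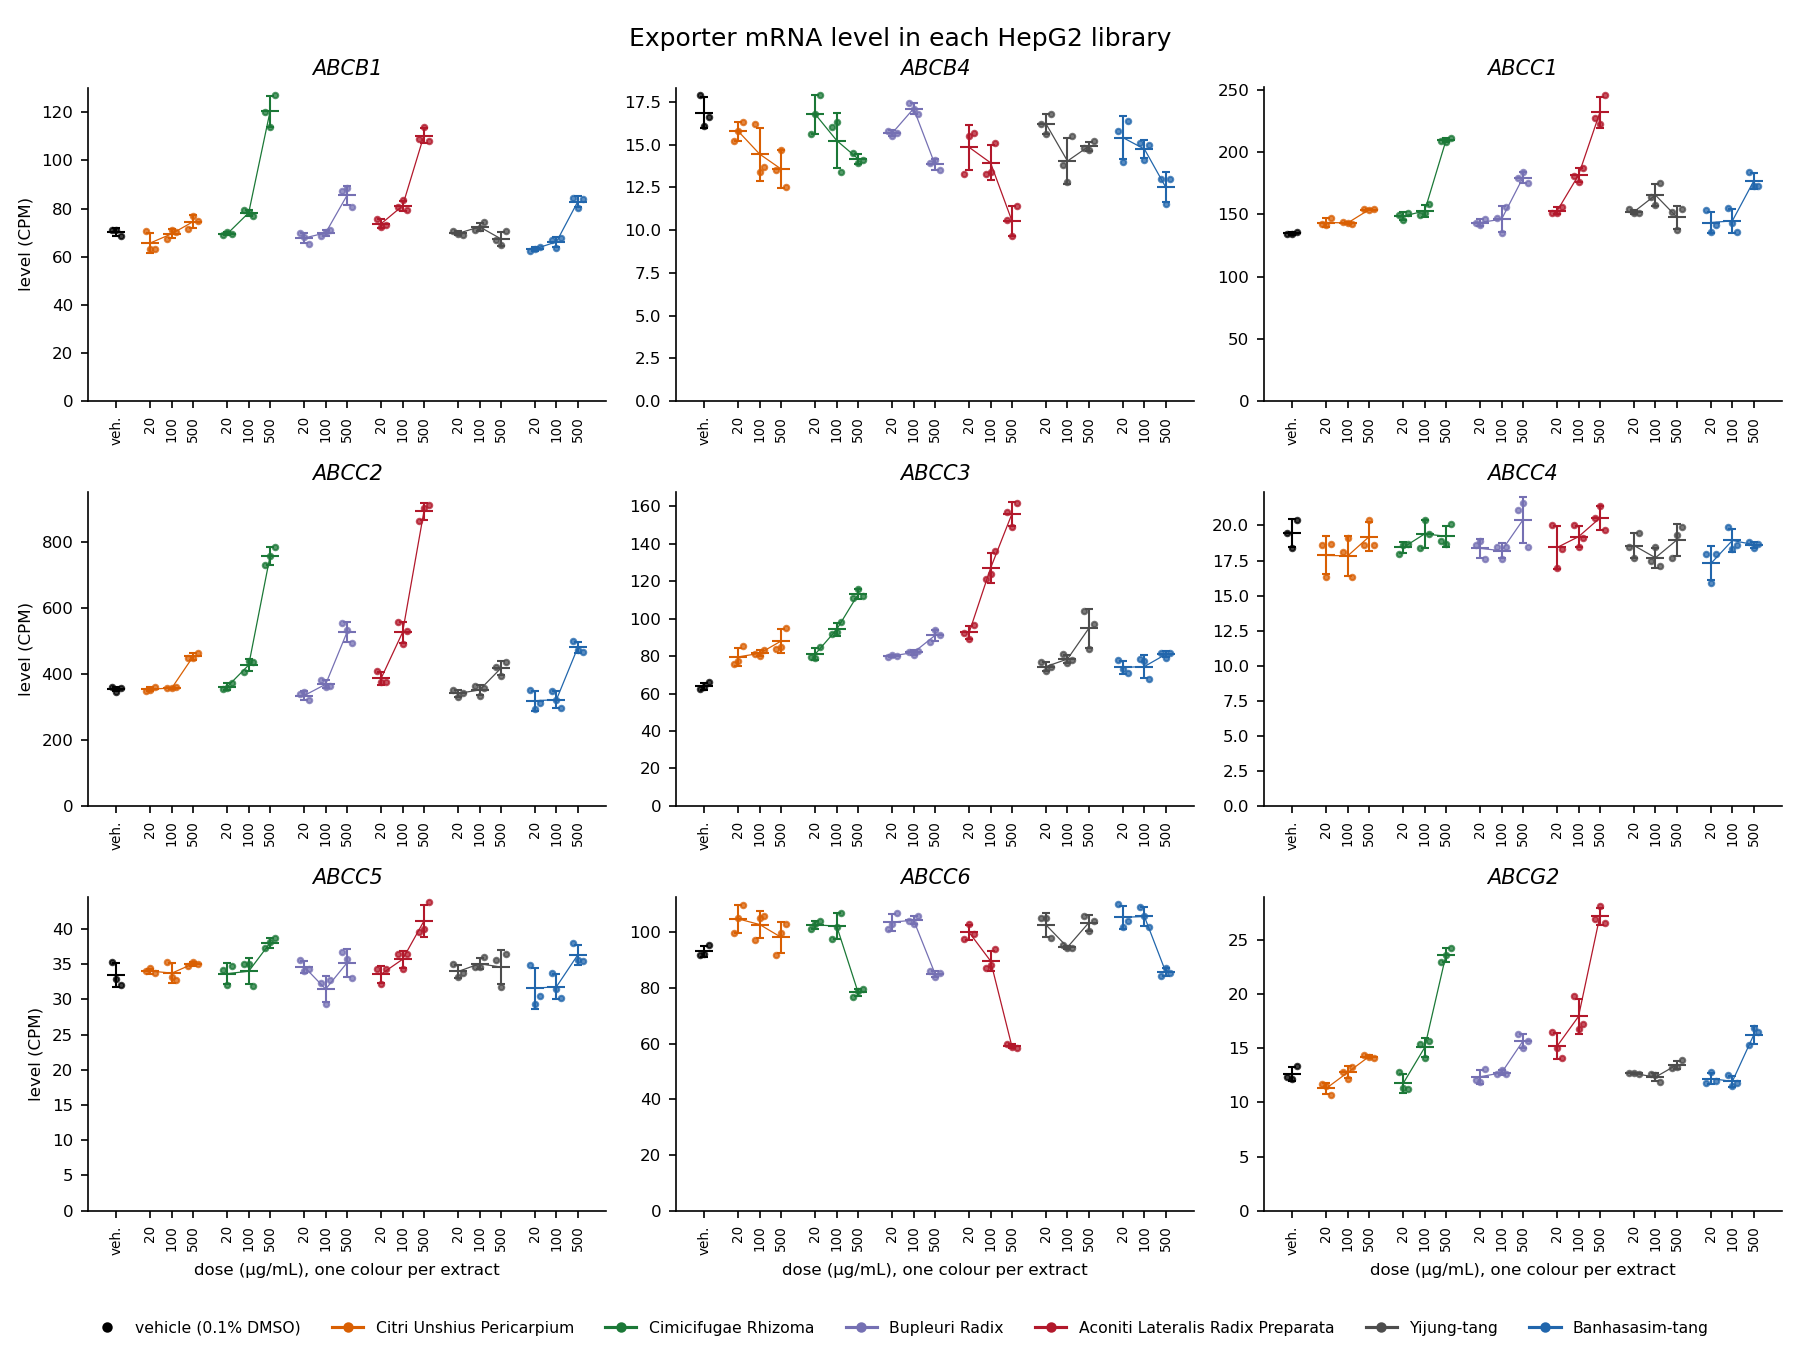
Level of each exporter in CPM (y axis) in every replicated library, by dose of each extract in µg/mL (x axis, vehicle at the left). Small points are libraries, and the horizontal mark and bar are the mean and SD of 3. ABCC2 reaches 893 CPM on average with Aconiti Lateralis Radix Preparata at 500 µg/mL, ABCC6 and ABCB4 have their lowest means in that same group, and ABCC4 stays between 15.9 and 21.6 CPM in every library shown.

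ABCC2 (MRP2) exports bilirubin glucuronides and glutathione conjugates across the canalicular membrane, and it was called higher at 500 than at 20 µg/mL in 6 of 6 extracts. With Aconiti Lateralis Radix Preparata the libraries had 863, 904 and 912 CPM at 500 µg/mL, against 409.7, 375 and 377 CPM at 20 µg/mL. With Cimicifugae Rhizoma they had 729, 757 and 786 CPM at 500 µg/mL, against 354, 357 and 374 CPM at 20 µg/mL. In both extracts the lowest library of the high dose lay far above the highest of the low dose. The log2 fold change was 1.20 ± 0.054 (SE, n = 3 each) with Aconiti Lateralis Radix Preparata, a 2.30-fold level (adjusted p = 4.39e-24), and 1.06 ± 0.054 with Cimicifugae Rhizoma, a 2.09-fold level (adjusted p = 6.04e-22).

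The other extracts moved ABCC2 less, again with no overlap between the doses. Bupleuri Radix gave 553, 532 and 495 CPM at 500 µg/mL, against 339.8, 344 and 320.2 CPM at 20 µg/mL (log2 fold change 0.65, adjusted p = 7.98e-14). Banhasasim-tang gave 499.5, 473 and 468 CPM at 500 µg/mL, against 352, 294 and 311 CPM at 20 µg/mL (0.59, adjusted p = 2.70e-12). Citri Unshius Pericarpium had 448, 447 and 464 CPM at 500 µg/mL, against 349, 352 and 361 CPM at 20 µg/mL (0.36, adjusted p = 1.39e-05). Yijung-tang had the smallest increase. Its libraries had 421, 394 and 437 CPM at 500 µg/mL, against 352, 330.1 and 341 CPM at 20 µg/mL (0.29, adjusted p = 2.16e-04). ABCC2 levels over the 19 replicated groups spanned 2.80-fold between the highest and lowest means. Aconiti Lateralis Radix Preparata at 500 µg/mL and Cimicifugae Rhizoma at 500 µg/mL stood apart from each other and from the next group, and of the 18 neighbouring pairs of groups in that order 14 overlapped.

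ABCB1 (P-glycoprotein) pumps a wide range of uncharged and cationic drugs into bile, and it was called higher at the high dose in 5 of 6 extracts. Cimicifugae Rhizoma gave 120.2, 114 and 127 CPM at 500 µg/mL, against 69.0, 70.2 and 69.4 CPM at 20 µg/mL. Treatment with Aconiti Lateralis Radix Preparata gave 109, 114 and 108 CPM at 500 µg/mL, against 75.7, 72.5 and 73.0 CPM at 20 µg/mL. Neither pair of groups overlapped. The log2 fold change was 0.79 ± 0.041 (adjusted p = 1.13e-21) with Cimicifugae Rhizoma and 0.58 ± 0.040 (adjusted p = 7.09e-17) with Aconiti Lateralis Radix Preparata. For ABCC2 the larger value was with Aconiti Lateralis Radix Preparata. These extracts belong to different sets, and their dose effects were not tested against each other for either gene. Banhasasim-tang (0.40), Bupleuri Radix (0.33) and Citri Unshius Pericarpium (0.18) also passed. The call for Citri Unshius Pericarpium rested on single libraries, since the adjusted p was 0.0940 without replicate 2 at 20 µg/mL, 0.0920 without replicate 3 at 20 µg/mL and 0.0842 without replicate 2 at 500 µg/mL. With Yijung-tang the libraries had 66.9, 64.7 and 70.7 CPM at 500 µg/mL, against 70.6, 69.4 and 69.0 CPM at 20 µg/mL. These groups overlapped, and the log2 fold change was -0.05 (95% interval -0.13 to 0.03).

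ABCG2 (BCRP) exports sulphate conjugates, porphyrins and many drugs, and it followed ABCB1 in being called higher in 5 of 6 extracts, all except Yijung-tang. Cimicifugae Rhizoma had 23.0, 23.6 and 24.3 CPM at 500 µg/mL, against 12.8, 11.3 and 11.2 CPM at 20 µg/mL. The libraries of Aconiti Lateralis Radix Preparata had 26.9, 28.1 and 26.6 CPM at 500 µg/mL, against 16.5, 15.0 and 14.1 CPM at 20 µg/mL. The doses did not overlap in either extract. The fold was 2.00 (log2 1.00 ± 0.061, adjusted p = 5.51e-19) with Cimicifugae Rhizoma and 1.79 (log2 0.84 ± 0.056, adjusted p = 2.01e-17) with Aconiti Lateralis Radix Preparata. Banhasasim-tang (0.42), Citri Unshius Pericarpium (0.34) and Bupleuri Radix (0.34) gave smaller increases. With Yijung-tang the log2 fold change was 0.08 (95% interval -0.04 to 0.21, adjusted p = 0.583). Vehicle libraries had 12.3, 12.2 and 13.4 CPM of ABCG2, below every Aconiti Lateralis Radix Preparata library at 20 µg/mL, although the vehicle carries another code.

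ABCB4 (MDR3) is the close relative of ABCB1 that moves phosphatidylcholine into bile rather than drugs, and its log2 fold change was below 0 in all 6 extracts, with 3 called lower. Libraries given Aconiti Lateralis Radix Preparata had 10.6, 9.63 and 11.4 CPM at 500 µg/mL, against 13.3, 15.5 and 15.7 CPM at 20 µg/mL. All libraries of the high dose lay below those of the low dose, and ABCB4 fell by 0.50 on the log2 scale (SE 0.081, adjusted p = 1.42e-06). It also fell with Banhasasim-tang (-0.30, adjusted p = 0.00378) and Cimicifugae Rhizoma (-0.25, adjusted p = 0.00963). The last of these calls was lost without replicate 3 at 20 µg/mL (-0.20, adjusted p = 0.0690). The values for Citri Unshius Pericarpium (-0.22), Bupleuri Radix (-0.18) and Yijung-tang (-0.12) did not pass. ABCB1 and ABCB4 lie 23197 bases apart on chromosome 7, both on the minus strand. The ratio of ABCB1 to ABCB4 in CPM was 10.5 ± 1.17 with Aconiti Lateralis Radix Preparata at 500 µg/mL, against 5.01 ± 0.602 at 20 µg/mL (SD, n = 3 each). Cimicifugae Rhizoma gave 8.52 ± 0.452 at 500 µg/mL, against 4.16 ± 0.267 at 20 µg/mL.

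ABCC1 (MRP1) exports glutathione conjugates and oxidised glutathione, and it was called higher in 4 of 6 extracts. In the Aconiti Lateralis Radix Preparata libraries there were 227, 222 and 246 CPM at 500 µg/mL, against 151, 151 and 156 CPM at 20 µg/mL. Cimicifugae Rhizoma gave 209, 208 and 211 CPM at 500 µg/mL, against 149, 145 and 151 CPM at 20 µg/mL. No library of the high dose reached down to the low dose in these extracts. The log2 fold change was 0.60 ± 0.046 (adjusted p = 1.89e-15) with Aconiti Lateralis Radix Preparata, 0.49 ± 0.046 (adjusted p = 1.33e-12) with Cimicifugae Rhizoma, 0.32 with Bupleuri Radix and 0.31 with Banhasasim-tang. Citri Unshius Pericarpium (0.10, 95% interval 0.01 to 0.19, adjusted p = 0.409) and Yijung-tang (-0.04, -0.14 to 0.05, adjusted p = 0.727) did not pass.

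ABCC3 (MRP3) exports glucuronides towards blood and is known to rise when bile flow is blocked. With Aconiti Lateralis Radix Preparata there were 157, 149 and 162 CPM at 500 µg/mL, against 92.3, 89.3 and 96.4 CPM at 20 µg/mL. Cimicifugae Rhizoma gave 111, 116 and 112 CPM at 500 µg/mL, against 79.7, 79.0 and 84.8 CPM at 20 µg/mL. Yijung-tang, which left ABCB1, ABCG2 and ABCC1 without a call, gave 104, 83.7 and 97.0 CPM at 500 µg/mL, against 76.9, 72.3 and 74.2 CPM at 20 µg/mL. The doses did not overlap in these 3 extracts, although the spread at 500 µg/mL was widest with Yijung-tang. The log2 fold change was 0.74 ± 0.054 (adjusted p = 4.43e-16) with Aconiti Lateralis Radix Preparata, 0.47 ± 0.056 (adjusted p = 1.18e-09) with Cimicifugae Rhizoma and 0.35 ± 0.056 (adjusted p = 1.95e-05) with Yijung-tang. In a fit of only the Yijung-tang libraries compared, that last adjusted p was 0.0619. Bupleuri Radix also passed (0.18, adjusted p = 0.0135, and 0.0849 without replicate 2 at 500 µg/mL). The values for Citri Unshius Pericarpium (0.15) and Banhasasim-tang (0.14) did not, although Banhasasim-tang passed once a trend with transcript GC content was removed (0.15, adjusted p = 0.0208).

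ABCC5 (MRP5), an exporter of cyclic nucleotides and nucleotide analogues, moved least among the exporters with a call. It ranged between 29.4 and 43.8 CPM over all replicated libraries. Aconiti Lateralis Radix Preparata had 39.6, 40.0 and 43.8 CPM at 500 µg/mL, against 34.3, 32.2 and 34.3 CPM at 20 µg/mL, without overlap (log2 fold change 0.28 ± 0.055, adjusted p = 3.56e-05). Banhasasim-tang (0.20, adjusted p = 0.00646) and Cimicifugae Rhizoma (0.17, adjusted p = 0.0136) also passed. The Banhasasim-tang call was lost without replicate 2 at 20 µg/mL (adjusted p = 0.105) or replicate 1 at 500 µg/mL (0.0621), and the Cimicifugae Rhizoma call without replicate 2 at 20 µg/mL (0.0838).

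ABCC4 (MRP4), which carries cyclic nucleotides and bile acids out at the basolateral side, had no call in any of the 25 comparisons. Between 500 and 20 µg/mL, 0 of 6 extracts passed in edgeR and 0 of 6 in DESeq2, with 2 of 6 at an unadjusted p under 0.05. The log2 fold changes ran between 0.03 with Yijung-tang and 0.15 with Aconiti Lateralis Radix Preparata and Bupleuri Radix. For Aconiti Lateralis Radix Preparata the 95% interval was 0.02 to 0.28 (adjusted p = 0.0595). The call depended on single libraries, with an adjusted p of 0.0142 without Aconiti Lateralis Radix Preparata replicate 1 at 20 µg/mL, 0.0392 without its replicate 3 at 500 µg/mL, and 0.0187 for Bupleuri Radix without its replicate 3 at 500 µg/mL. Against vehicle at 500 µg/mL it passed only once a trend with transcript GC content was removed, with Bupleuri Radix (0.15, adjusted p = 0.0444, against 0.07 without that step) and Aconiti Lateralis Radix Preparata (0.16, adjusted p = 0.0202, against 0.07). Group means ran between 17.3 and 20.5 CPM, and all 18 neighbouring pairs of groups overlapped.

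ABCC6 (MRP6), whose loss causes pseudoxanthoma elasticum and which mediates ATP release from hepatocytes, was called lower in 4 of 6 extracts. For Aconiti Lateralis Radix Preparata the libraries had 59.8, 58.8 and 58.4 CPM at 500 µg/mL, against 97.6, 103 and 99.2 CPM at 20 µg/mL. Cimicifugae Rhizoma gave 76.9, 78.9 and 79.5 CPM at 500 µg/mL, against 101, 103 and 104 CPM at 20 µg/mL. The high dose lay wholly below the low dose in each. ABCC6 fell by 0.77 on the log2 scale with Aconiti Lateralis Radix Preparata (SE 0.041, a 0.588-fold level, adjusted p = 7.08e-21), by 0.40 with Cimicifugae Rhizoma, by 0.30 with Banhasasim-tang and by 0.28 with Bupleuri Radix. Citri Unshius Pericarpium (-0.09) and Yijung-tang (0.01) did not pass.

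The ABCC6 values are uncertain in one respect, because the gene has the near-identical copies ABCC6P1 and ABCC6P2 on the same chromosome and its expected counts were not whole in 60 of 60 libraries. With Aconiti Lateralis Radix Preparata, ABCC6P1 had 58.8, 54.4 and 51.9 CPM at 500 µg/mL, against 76.7, 80.7 and 78.1 CPM at 20 µg/mL. The copies fell as well, ABCC6P1 by 0.52 and ABCC6P2 by 0.80 on the log2 scale. The ratio of ABCC6P1 to ABCC6 was 0.933 ± 0.048 with Aconiti Lateralis Radix Preparata at 500 µg/mL, against 0.785 ± 0.0024 at 20 µg/mL. How reads were split among these genes was not tested.

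ABCC1 and ABCC6 are neighbours on chromosome 16, on opposite strands and 5853 bases apart, and they moved in opposite directions. The ratio of ABCC1 to ABCC6 in CPM was 3.93 ± 0.243 with Aconiti Lateralis Radix Preparata at 500 µg/mL, against 1.53 ± 0.061 at 20 µg/mL. With Cimicifugae Rhizoma it was 2.67 ± 0.047 at 500 µg/mL, against 1.44 ± 0.030 at 20 µg/mL (SD, n = 3 each). Both genes were called, in opposite directions, with the same 4 extracts. No exon of another annotated gene overlapped an exon of the 9 exporters. The setting used for strand in counting is not given in the sources used here.

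**Figure D2:**
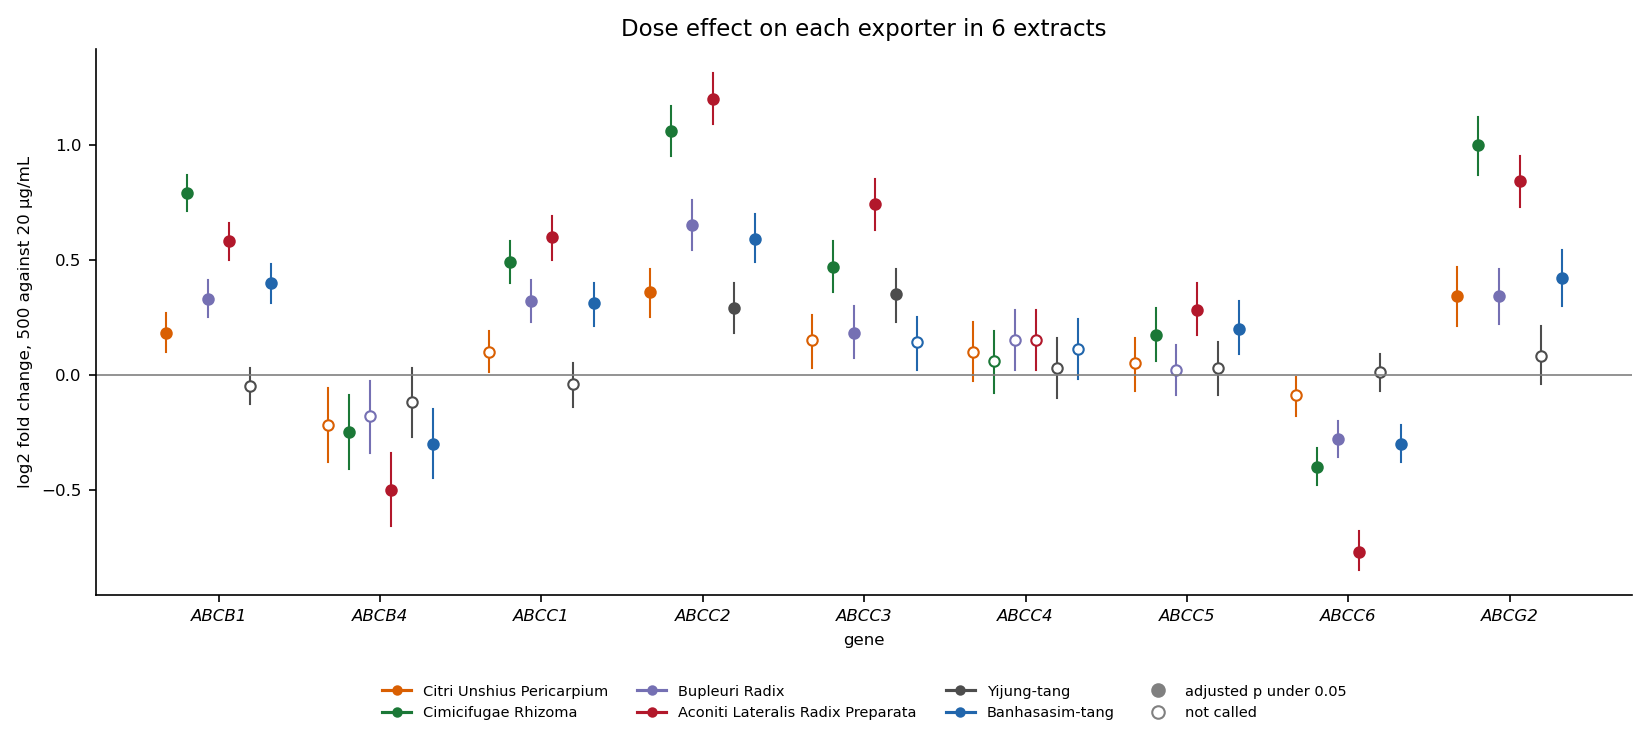
Log2 fold change at 500 against 20 µg/mL (y axis) of each exporter (x axis) in 6 extracts, each in its own colour, with 95% intervals from edgeR. Filled points passed an adjusted p of 0.05. ABCC2 is filled in all 6 extracts with values between 0.29 and 1.20, ABCC4 in none, and ABCB4 and ABCC6 are filled only below 0.

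The intermediate dose gave few calls. At 100 against 20 µg/mL, 10 of 54 exporter tests passed. Aconiti Lateralis Radix Preparata gave 6 of 9 against 5.68% of all genes tested, and Cimicifugae Rhizoma 4 of 9 against 1.29%. Citri Unshius Pericarpium gave 0 of 9 in edgeR against 0.0249% of all genes, Bupleuri Radix 0 of 9 against 0.162%, Yijung-tang 0 of 9 against 1.24% and Banhasasim-tang 0 of 9 against 0.0124%. DESeq2 also called 0 of 9 in each of these 4 extracts. At an unadjusted p under 0.05 there were 1 for Citri Unshius Pericarpium, 2 for Bupleuri Radix, 3 for Yijung-tang and 0 for Banhasasim-tang.

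With Aconiti Lateralis Radix Preparata, ABCC3 and ABCC2 had moved most at 100 µg/mL. ABCC3 had 121, 124 and 136 CPM at 100 µg/mL, against 92.3, 89.3 and 96.4 CPM at 20 µg/mL (log2 fold change 0.45, adjusted p = 4.98e-08). ABCC2 had 556, 492 and 530.5 CPM at 100 µg/mL, against 409.7, 375 and 377 CPM at 20 µg/mL (0.44, adjusted p = 4.98e-08). The libraries of the doses did not overlap for either gene. ABCC1 (0.24), ABCG2 (0.24) and ABCB1 (0.13) were higher and ABCC6 (-0.16) was lower at 100 µg/mL. With Cimicifugae Rhizoma the largest value was for ABCG2 (0.35, adjusted p = 5.61e-04), followed by ABCC2 (0.24), ABCC3 (0.21) and ABCB1 (0.17). ABCC6 had -0.01 there and ABCC1 0.04, neither of them called at 100 µg/mL, although both were called at 500 µg/mL. Without 1 library of the comparison, between 1 and 3 of the 4 Cimicifugae Rhizoma calls and between 3 and 6 of the 6 Aconiti Lateralis Radix Preparata calls were made.

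Extracts of 1 set were then compared at 500 µg/mL, where 21 of 27 exporter tests passed. Cimicifugae Rhizoma against Citri Unshius Pericarpium gave 6 of 9, beside 41.8% of all genes. Aconiti Lateralis Radix Preparata against Bupleuri Radix gave 8 of 9, beside 23.5%, and Banhasasim-tang against Yijung-tang 7 of 9, beside 14.9%. Cimicifugae Rhizoma was higher than Citri Unshius Pericarpium for ABCC2 (0.73), ABCG2 (0.72), ABCB1 (0.69), ABCC1 (0.44) and ABCC3 (0.35), and lower for ABCC6 (-0.33). Aconiti Lateralis Radix Preparata was higher than Bupleuri Radix for ABCG2 (0.79), ABCC3 (0.77), ABCC2 (0.76), ABCC1 (0.37), ABCB1 (0.36) and ABCC5 (0.22), and lower for ABCC6 (-0.53) and ABCB4 (-0.39).

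The mixtures were also compared with each other for ABCC3. Banhasasim-tang at 500 µg/mL gave 81.9, 79.2 and 81.9 CPM of ABCC3, against 104, 83.7 and 97.0 CPM with Yijung-tang. All Banhasasim-tang libraries lay below all Yijung-tang libraries (-0.22, adjusted p = 0.00243), but the call was lost without Yijung-tang replicate 1 (-0.16, adjusted p = 0.0700) and when the model held no other groups (adjusted p = 0.0691). The dose effect on ABCC3 was above 0 in both mixtures, and its difference between them did not pass (-0.21, adjusted p = 0.0726), although it did without Yijung-tang replicate 2 at 500 µg/mL (-0.30, adjusted p = 0.00511) or Banhasasim-tang replicate 3 at 20 µg/mL (-0.24, adjusted p = 0.0499). ABCB1 (0.30), ABCG2 (0.27), ABCC1 (0.26) and ABCC2 (0.20) were higher and ABCC6 (-0.27) and ABCB4 (-0.25) lower with Banhasasim-tang. For ABCB4 the adjusted p was 0.132 without Banhasasim-tang replicate 2 and 0.0586 without Yijung-tang replicate 3, and for ABCC2 it was 0.0503 without Yijung-tang replicate 2.

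Differences in the size of the dose effect itself were tested as interaction terms in the same model, and 18 of 27 passed. Cimicifugae Rhizoma against Citri Unshius Pericarpium gave 6 of 9, beside 28.2% of all genes, Aconiti Lateralis Radix Preparata against Bupleuri Radix 7 of 9, beside 10.2%, and Banhasasim-tang against Yijung-tang 5 of 9, beside 12.1%. For ABCC2 the log2 fold change between doses was 0.70 ± 0.076 larger with Cimicifugae Rhizoma than with Citri Unshius Pericarpium (adjusted p = 1.67e-10). It was 0.55 ± 0.075 larger with Aconiti Lateralis Radix Preparata than with Bupleuri Radix (adjusted p = 3.26e-07) and 0.30 ± 0.075 larger with Banhasasim-tang than with Yijung-tang (adjusted p = 0.00374). That last call was lost when the model held no other groups (0.31, adjusted p = 0.0524), and the ABCG2 call of the same pair with no filter on low counts (0.33, adjusted p = 0.0705). ABCB1, ABCC1, ABCG2 and ABCC6 also passed in all 3 pairs, ABCB1, ABCC1 and ABCG2 with a higher and ABCC6 with a lower log2 fold change in the first-named extract. Over the 6 extracts together the dose effect was unequal for 7 of 9 exporters, beside 36.9% of all genes, with ABCC5 among them (adjusted p = 0.0146, but 0.0628 with no filter on low counts). The exceptions were ABCC4 (adjusted p = 0.792) and ABCB4 (0.0783, but 0.0240 without Aconiti Lateralis Radix Preparata replicate 1 at 20 µg/mL and 0.0467 without Banhasasim-tang replicate 2 at 20 µg/mL).

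**Figure D3:**
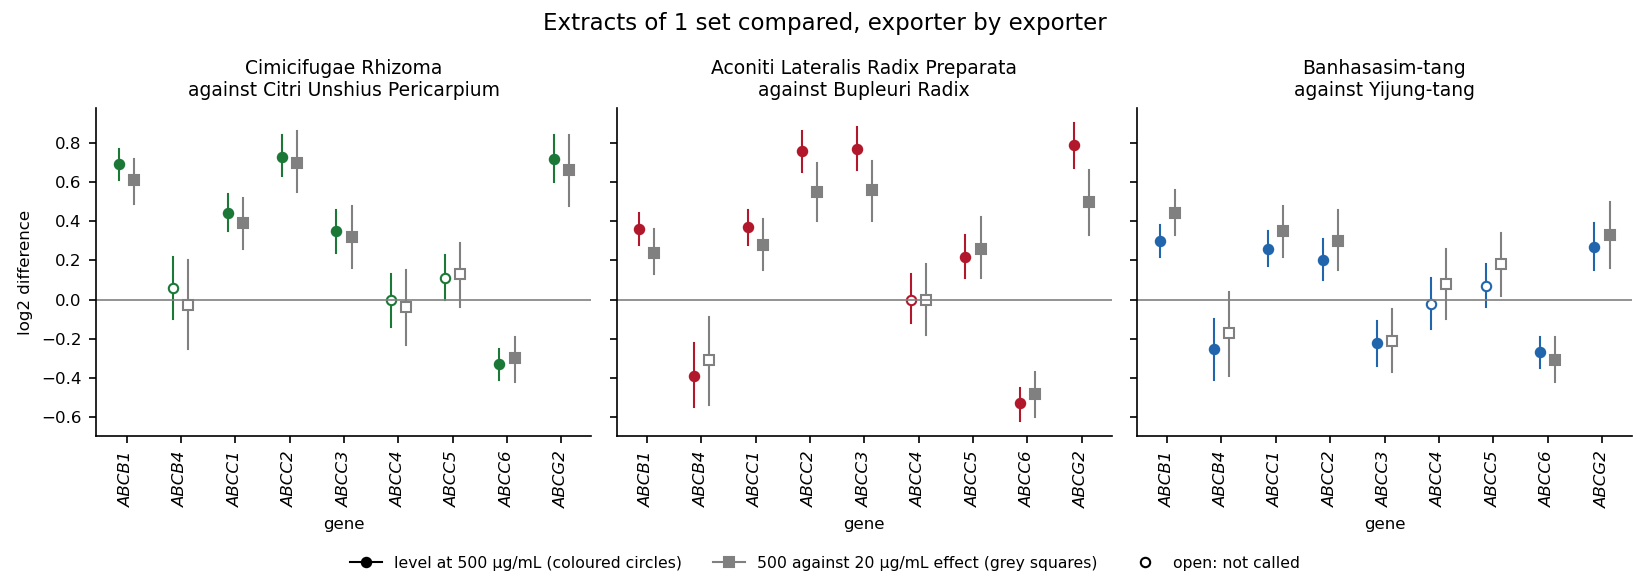
Log2 difference (y axis) between extracts of 1 set for each exporter (x axis), with 95% intervals. Coloured circles compare levels at 500 µg/mL and grey squares compare the 500 against 20 µg/mL effects, with open symbols where the adjusted p was not under 0.05. ABCC6 is below 0 in all 3 panels, and ABCC3 is above 0 in the first 2 panels and below 0 for Banhasasim-tang against Yijung-tang.

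The exporters were also set against each other within a library. The summed level of the 9, in CPM per kb, was 200.3 ± 4.61 with Aconiti Lateralis Radix Preparata at 500 µg/mL, against 115 ± 2.61 at 20 µg/mL (SD, n = 3 each). ABCC2 alone made up 56.3, 57.6 and 56.8% of that sum at 500 µg/mL, against 44.3, 42.4 and 42.0% at 20 µg/mL. With Cimicifugae Rhizoma its share was 53.2, 54.2 and 54.3% at 500 µg/mL, against 41.8, 42.2 and 42.6% at 20 µg/mL. ABCC2 thus gained share in both extracts without overlap between libraries, and the smallest change was with Yijung-tang, 45.2 ± 0.40% at 500 µg/mL against 40.8 ± 0.56% at 20 µg/mL. The canalicular and basolateral conjugate exporters were compared as ABCC2 over ABCC3, in CPM per kb. That ratio was 8.23 ± 0.343 with Cimicifugae Rhizoma at 500 µg/mL, against 5.46 ± 0.073 at 20 µg/mL, and 5.43 ± 0.41 with Yijung-tang at 500 µg/mL, against 5.62 ± 0.017 at 20 µg/mL. At 500 µg/mL it was 7.27 with Banhasasim-tang, 7.10 with Bupleuri Radix, 7.05 with Aconiti Lateralis Radix Preparata and 6.32 with Citri Unshius Pericarpium. In the same order it was 5.29, 5.12, 5.13 and 5.47 at 20 µg/mL. The vehicle mean, 6.79 ± 0.247, lay above that of every extract at 20 µg/mL.

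**Figure D4:**
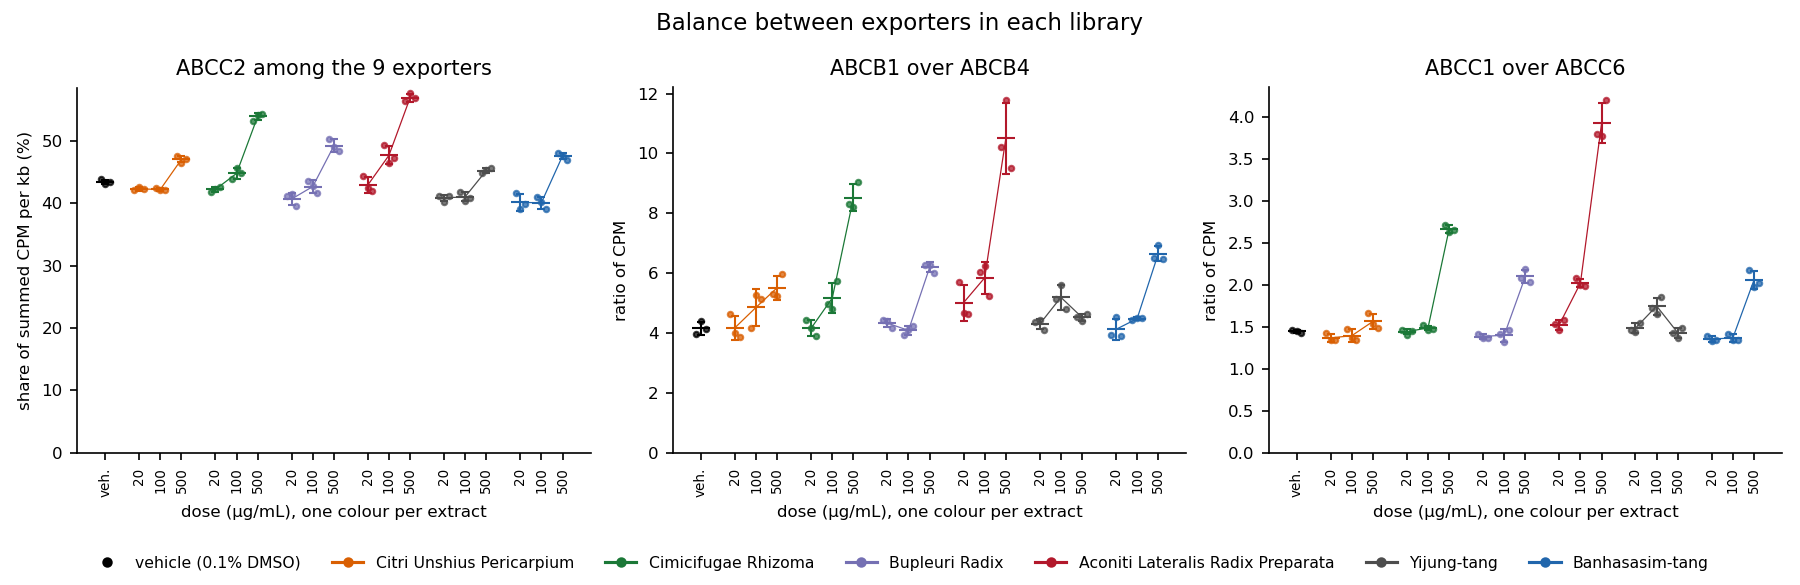
Share of ABCC2 in the summed CPM per kb of the 9 exporters (left), ABCB1 over ABCB4 (middle) and ABCC1 over ABCC6 (right), for each replicated library by dose in µg/mL. Points are libraries, and marks and bars are the mean and SD of 3. With Aconiti Lateralis Radix Preparata at 500 µg/mL the means are 56.9%, 10.5 and 3.93, each the highest of the 19 groups.

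Against vehicle at 500 µg/mL, 39 of 54 exporter tests passed, 30 higher and 9 lower. Cimicifugae Rhizoma gave 8 of 9 beside 45.8% of all genes, Aconiti Lateralis Radix Preparata 8 of 9 beside 47.4%, Bupleuri Radix 7 of 9 beside 35.7% and Banhasasim-tang 7 of 9 beside 34.7%. Citri Unshius Pericarpium gave 5 of 9 beside 22.5% and Yijung-tang 4 of 9 beside 32.6%, so that the count for Yijung-tang was close to its background. These comparisons share the vehicle libraries. Without vehicle replicate 2, the library with PTPRC counts, the counts were 8, 8, 7, 7, 4 and 3 in the same order of extracts.

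ABCC3 set the vehicle apart. Its vehicle libraries had 62.3, 63.4 and 66.1 CPM, a mean of 63.9 CPM that was the lowest of the 19 groups and did not overlap the next lowest, Banhasasim-tang at 20 µg/mL with a mean of 74.0 CPM. ABCC3 was called higher at 500 µg/mL than in vehicle with all 6 extracts, with log2 fold changes between 0.35 with Banhasasim-tang and 1.28 with Aconiti Lateralis Radix Preparata. ABCC2 and ABCC1 were also called higher with all 6. ABCC2 had log2 fold changes of 0.36 with Citri Unshius Pericarpium, 1.10 with Cimicifugae Rhizoma, 0.58 with Bupleuri Radix, 1.34 with Aconiti Lateralis Radix Preparata, 0.24 with Yijung-tang and 0.45 with Banhasasim-tang. The ABCC1 increase with Yijung-tang (0.14, adjusted p = 0.0188) was not called without any 1 of vehicle replicates 1 and 2 and Yijung-tang replicates 1 and 3, with an adjusted p of 0.0582 to 0.146. Once a trend with transcript GC content was removed, ABCC1 was not called with Yijung-tang (0.03, adjusted p = 0.669) or Citri Unshius Pericarpium (0.12, adjusted p = 0.0617, against 0.19 without that step). ABCC6 was called higher than in vehicle with Yijung-tang (0.15, adjusted p = 0.00253), and this turned to -0.03 (adjusted p = 0.677) with the same trend removed. ABCB4 was called lower than in vehicle in 5 of 6 extracts, all except Yijung-tang.

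Genes with the most similar pattern were sought among 10188 protein-coding genes by Pearson's r of mean log2 CPM over the 19 groups. These values describe groups that share libraries, depth and a few strong treatments, and no test was made. ABCB1 was most alike to CD109 (r = 0.988) and GCNT3 (0.975), ABCC1 to GDF15 (0.987) and CTTN (0.978), and ABCG2 to FGD4 (0.973) and CTTN (0.966). ABCC2 was most alike to SLC6A6 (0.976) and GPAT3 (0.975), and ABCC3 to OGDH (0.970) and RAP1GAP (0.957). ABCC6 was most alike to SSC4D (0.982) and ETNK2 (0.980), ABCB4 to SLCO4C1 (0.932) and ATP2B2 (0.909), and ABCC5 to USP31 (0.937) and TTC17 (0.936). ABCC4 had the loosest match, CCDC93 (0.833) and KPNA6 (0.791). Among the exporters themselves, ABCC2 and ABCG2 were most alike (0.970), and ABCC1 and ABCC6 were most opposed (-0.917).

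Other transporters gave calls in both directions. Of 29 other ABC transporters listed, 19 were tested at 500 against 20 µg/mL, and 8 were called with Cimicifugae Rhizoma (5 higher, 3 lower), where 39.2% of all genes were called, and 6 with Aconiti Lateralis Radix Preparata (4 higher, 2 lower), where 37.2% were. Both counts were close to those shares of the 19. Their median log2 fold change was 0.02 and 0.03 in these extracts, beside 0.47 and 0.58 for the 9 exporters and 0.00 for all genes. ABCG8, a subunit of the canalicular sterol exporter, was called lower with Aconiti Lateralis Radix Preparata (-0.48), Cimicifugae Rhizoma (-0.33), Bupleuri Radix (-0.32) and Banhasasim-tang (-0.22), and higher with Yijung-tang (0.25). Of 11 other hepatic carriers tested, 7 were called with Aconiti Lateralis Radix Preparata, 3 higher and 4 lower, beside the same 37.2% of all genes. SLC22A7, the basolateral organic anion uptake carrier OAT2, fell with Aconiti Lateralis Radix Preparata (-1.23), Cimicifugae Rhizoma (-0.93), Bupleuri Radix (-0.83) and Banhasasim-tang (-0.78). It rose with Yijung-tang (0.76). NHERF1 and PDZK1, scaffold proteins that tether apical transporters, fell with Aconiti Lateralis Radix Preparata by 0.47 and 0.71 and with Cimicifugae Rhizoma by 0.51 and 0.35 on the log2 scale. NHERF1 was also called lower with Bupleuri Radix (-0.24) and Banhasasim-tang (-0.15), and higher with Yijung-tang (0.18).

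Enzymes and sensors that act with the exporters were described in the same way, from lists drawn up with earlier results of these data known. GCLC and GCLM, the subunits of the enzyme that limits glutathione synthesis, rose by 1.20 and 1.16 with Aconiti Lateralis Radix Preparata and by 0.80 and 0.96 with Cimicifugae Rhizoma on the log2 scale, at 500 against 20 µg/mL. GCLM also rose with Yijung-tang (0.68), Citri Unshius Pericarpium (0.59), Bupleuri Radix (0.52) and Banhasasim-tang (0.50). GCLC also rose with Bupleuri Radix (0.48), Banhasasim-tang (0.45) and Citri Unshius Pericarpium (0.25). GSTA1, a glutathione transferase, fell with Aconiti Lateralis Radix Preparata (-1.53), Cimicifugae Rhizoma (-1.76), Bupleuri Radix (-0.90) and Banhasasim-tang (-0.77). It rose with Yijung-tang (0.64). Of 5 NRF2 readouts, 5 were called with Aconiti Lateralis Radix Preparata, all higher, beside 37.2% of all genes, and 5 with Cimicifugae Rhizoma, 4 higher and 1 lower, beside 39.2%. SLC7A11, the cystine carrier, rose by 2.15 and 1.51 in these extracts, by 0.72 with Bupleuri Radix and by 0.53 with Banhasasim-tang. HMOX1, named after its values were seen, was the lower one with Cimicifugae Rhizoma (-0.25). It also fell with Banhasasim-tang (-0.25) and Bupleuri Radix (-0.21), and it rose with Yijung-tang (0.74), Citri Unshius Pericarpium (0.34) and Aconiti Lateralis Radix Preparata (0.19). With Yijung-tang 4 of the 5 NRF2 readouts were called higher, beside 3.77% of all genes called in either direction. CYP1A1, the standard AHR readout, rose with all 6 extracts, between 1.33 with Yijung-tang and 4.85 with Cimicifugae Rhizoma. It was the only AHR readout called with Citri Unshius Pericarpium, Bupleuri Radix, Yijung-tang and Banhasasim-tang. AHRR and CYP1A2 also rose with Cimicifugae Rhizoma (2.69 and 3.31) and Aconiti Lateralis Radix Preparata (2.98 and 2.39). Both were near the floor, with medians of 0.686 CPM for AHRR and 0.0780 CPM for CYP1A2 over all libraries. Their highest libraries had 8.53 and 2.15 CPM. The CYP1A2 values had SEs of 0.533 with Cimicifugae Rhizoma and 0.355 with Aconiti Lateralis Radix Preparata. Against vehicle at 500 µg/mL, CYP1A1 rose most with Aconiti Lateralis Radix Preparata (6.29), although its rise against 20 µg/mL was 2.91. Cimicifugae Rhizoma had 5.49 against vehicle, beside 4.85 against 20 µg/mL. CYP1A1 at 20 µg/mL of Aconiti Lateralis Radix Preparata thus lay above vehicle, a comparison that was not tested and that spans codes. TIPARP, another AHR readout, fell against vehicle with Bupleuri Radix (-0.35), Yijung-tang (-0.17) and Banhasasim-tang (-0.32). Of 4 readouts of the pregnane X and constitutive androstane receptors only CYP3A5 was tested. At 500 against 20 µg/mL it was called higher with Cimicifugae Rhizoma (1.23), Bupleuri Radix (0.54), Aconiti Lateralis Radix Preparata (0.52) and Banhasasim-tang (0.38). NR1H4 (FXR), the bile acid receptor, fell with Cimicifugae Rhizoma (-1.83), Aconiti Lateralis Radix Preparata (-1.76), Bupleuri Radix (-0.98) and Banhasasim-tang (-0.70). From the same list of receptors and sensors, NR0B2 rose with Cimicifugae Rhizoma (1.13), Aconiti Lateralis Radix Preparata (0.60) and Bupleuri Radix (0.60). NR0B2 fell with Citri Unshius Pericarpium (-0.23). NFE2L2, the gene of NRF2, fell with Cimicifugae Rhizoma (-0.46) and Bupleuri Radix (-0.45), although most NRF2 readouts called with Cimicifugae Rhizoma were higher. AHR rose with Aconiti Lateralis Radix Preparata (0.47) and fell with Yijung-tang (-0.27). KEAP1 rose with Banhasasim-tang (0.21) and Citri Unshius Pericarpium (0.20), and NR3C1 fell with Banhasasim-tang (-0.27). At most 3 called genes per list and extract are named, so a gene not named for an extract may still be called there.

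The summed levels of hepatic markers and of markers of other cells moved beside these changes. The summed level of the 9 hepatic markers was 35918 to 36822 CPM with Aconiti Lateralis Radix Preparata at 500 µg/mL, against 40271 to 42036 CPM at 20 µg/mL. It was 37595 to 38797 CPM with Cimicifugae Rhizoma at 500 µg/mL, against 43298 to 43578 CPM at 20 µg/mL. Most of this hepatic sum was APOB, ALB and SERPINA1, with medians of 20197, 8332 and 5575 CPM over all libraries. It therefore says little about HNF4A (371 CPM), FGB (230.0 CPM) or TTR (57.2 CPM). The 7 markers of other cell types summed to 71.7 to 74.5 CPM with Aconiti Lateralis Radix Preparata at 500 µg/mL, against 52.5 to 54.0 CPM at 20 µg/mL, and to 54.6 to 59.8 CPM with Cimicifugae Rhizoma at 500 µg/mL, against 43.6 to 48.0 CPM at 20 µg/mL. Most of that sum was CD68, a lysosomal protein used as a macrophage marker. Without CD68 the sum was 3.02 to 3.47 CPM with Aconiti Lateralis Radix Preparata at 500 µg/mL, against 4.24 to 4.61 CPM at 20 µg/mL, and 2.76 to 4.01 CPM with Cimicifugae Rhizoma at 500 µg/mL, against 4.80 to 6.01 CPM at 20 µg/mL. Of the 4 of these markers that were tested, CD68 was called higher with Aconiti Lateralis Radix Preparata (0.50) and Cimicifugae Rhizoma (0.43) and PECAM1 lower (-0.49 and -1.06). The part of these markers in the exporter changes was not tested.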

How the data were processed

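HepG2 libraries were made from total RNA with a directional mRNA kit, per the labels' protocols. Per the submitters' processing notes, the authors used FastQC 0.11.9, Trim Galore 0.6.5, STAR 2.7.3a and RSEM 1.3.3 with GRCh38, and deposited expected counts for 60675 Ensembl genes in 60 libraries. The annotation release and the strand setting are not given in the sources used here. Another 207 columns of the table belong to no sample here and were not used. The series text names 2% DMSO and wortmannin, while the labels give 0.1% DMSO. Wortmannin was not analysed here.

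Symbols, positions and exon lengths came from GENCODE 29. After rounding, edgeR 4.0.16 (on limma 3.58.1, R 4.3.3) was used to fit a quasi-likelihood model to 57 libraries in 19 groups, with TMM scaling (factors 0.898 to 1.04) and edgeR's filter (16093 genes). The common biological coefficient of variation was 4.86%. Fold changes were tested in 25 comparisons with Benjamini-Hochberg adjustment within each, and called under 0.05. Standard errors came from the fold change and the F statistic. CPM used TMM factors over all 60 libraries, and CPM per kb the exon length. Bojungikgi-tang stayed outside the fit.

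The 9 exporters, the gene lists and the tests were chosen with earlier results of these data known. All 9 exporters are given. From each list at most the 3 called genes with the smallest p in a comparison are named, and for each exporter the 2 protein-coding genes most alike in pattern. Alternatives were median-ratio size factors, no filter, DESeq2 1.42.0, a replicate block, no genes of mitochondrial DNA, only the libraries compared, removal of a GC trend, and leaving out each library. In 0 of 21 comparisons of groups was every correlation of deviations between same-numbered libraries over 0.1. Weak pairing is not excluded by that rule, since in some comparisons all same-numbered correlations lay above all others. With Citri Unshius Pericarpium at 100 against 20 µg/mL they were 0.0433 to 0.0996, against -0.0779 to -0.0106. In other comparisons the ranges overlapped. No libraries were identical (0), and chi-square per degree of freedom between replicates was 2.68 to 20.2 over 57 pairs.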

Additional observations from a re-analysis of the deposited data

Results flagged for a closer look

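The dose effect differed between the extracts of a set for 18 of 27 exporter tests, by the interaction term in edgeR. Between Cimicifugae Rhizoma and Citri Unshius Pericarpium the log2 difference was 0.70 for ABCC2, 0.66 for ABCG2, 0.61 for ABCB1, 0.39 for ABCC1, 0.32 for ABCC3 and -0.30 for ABCC6. Between Aconiti Lateralis Radix Preparata and Bupleuri Radix it was 0.56 for ABCC3, 0.55 for ABCC2, 0.50 for ABCG2, 0.28 for ABCC1, 0.26 for ABCC5, 0.24 for ABCB1 and -0.48 for ABCC6. The ABCC5 value was not called without any 1 of 4 libraries, with an adjusted p of 0.0566 to 0.0893. Between Banhasasim-tang and Yijung-tang it was 0.44 for ABCB1, 0.35 for ABCC1, 0.33 for ABCG2, 0.30 for ABCC2 and -0.31 for ABCC6.

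The single Bojungikgi-tang library at each dose lay outside every comparison, and of its 27 exporter values 12 were above and 5 below all 3 vehicle libraries, with 10 within their range. The 5 below were ABCB4 at 500 µg/mL (14.4 CPM), 100 µg/mL (15.3 CPM) and 20 µg/mL (15.4 CPM), against 16.1 to 17.9 CPM in vehicle, and at 20 µg/mL ABCB1 (67.4 CPM, against 68.5 to 71.3 CPM) and ABCC4 (16.5 CPM, against 18.4 to 20.4 CPM). At 500 µg/mL the values above were ABCC2 at 452 CPM, against 346 to 359 CPM in vehicle, ABCC1 at 153 CPM against 134 to 136, ABCC3 at 87.3 CPM against 62.3 to 66.1, ABCB1 at 74.5 CPM against 68.5 to 71.3 and ABCG2 at 16.0 CPM against 12.2 to 13.4. At 100 µg/mL they were ABCC1 at 150.2 CPM, ABCC3 at 77.2 CPM and ABCC6 at 105 CPM, against 92.0 to 95.4 CPM of ABCC6 in vehicle. At 20 µg/mL they were ABCC1 at 143 CPM, ABCC3 at 75.0 CPM, ABCC6 at 106 CPM and ABCC5 at 35.7 CPM, against 32.0 to 35.3 CPM of ABCC5 in vehicle. With 1 library a dose there is no replicate check, the vehicle carries another code, and the share of all genes outside the vehicle range was not computed.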

How the results depend on the processing

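Of 225 exporter tests, 225 kept direction and side of the threshold with median-ratio size factors and without genes of mitochondrial DNA, 224 with DESeq2, 224 with the replicate block, and 213 each with no filter, with only the libraries compared and with the GC trend removed. Leaving out 1 library, 1721 of 1782 did. The 1 reversal was ABCC6 with Yijung-tang against vehicle, -0.03 with the GC trend removed. Levels in CPM depended more on the scaling. Without genes of mitochondrial DNA, 198 of 198 exporter levels moved, and 35 of 198 with CPM of the plain library total. The first count follows from the method, since leaving out those genes takes 7.71 to 18.3% of counts from the totals that CPM is divided by. A level counted as moved when it shifted by at least the SD of its group, or for a single library left a Poisson interval. Apart from those smaller totals, smaller sets of libraries and larger sets of genes (33940 without the filter), the cause was not tested in any case.

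The replicate block changed 1 call, ABCC5 with Banhasasim-tang against vehicle (0.13, adjusted p = 0.0460, against 0.0756 without it), and the main fit did not pair libraries by number. No other exporter call changed with the block.

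Exporter calls numbered 1 for Yijung-tang at 500 against 20 µg/mL with only the libraries compared, 3 for Aconiti Lateralis Radix Preparata at 100 against 20 µg/mL with no filter, and 1 for Yijung-tang at 100 against 20 µg/mL with the GC trend removed. Leaving out 1 library gave 1 to 3 for Cimicifugae Rhizoma and 3 to 6 for Aconiti Lateralis Radix Preparata at 100 against 20 µg/mL.

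Counts over all genes moved as follows. With the GC trend removed they were 438 for Citri Unshius Pericarpium at 500 against 20 µg/mL, 7, 55 and 328 for Citri Unshius Pericarpium, Bupleuri Radix and Yijung-tang at 100 against 20 µg/mL, and 1956 and 2007 for Citri Unshius Pericarpium and Yijung-tang against vehicle. With only the libraries compared they were 135 for Yijung-tang and 1451 for Banhasasim-tang at 500 against 20 µg/mL, 344, 6, 36 and 6 for Cimicifugae Rhizoma, Bupleuri Radix, Yijung-tang and Banhasasim-tang at 100 against 20 µg/mL, 3465 for Yijung-tang against vehicle, and 1442 for the level and 1065 for the dose effect of Banhasasim-tang against Yijung-tang. With no filter, 100 against 20 µg/mL gave 58, 391, 149, 386 and 69 for Citri Unshius Pericarpium, Cimicifugae Rhizoma, Bupleuri Radix, Yijung-tang and Banhasasim-tang. DESeq2 gave 11, 41 and 307 for Citri Unshius Pericarpium, Bupleuri Radix and Yijung-tang at that dose, and leaving out genes of mitochondrial DNA gave 2 for Citri Unshius Pericarpium. Without 1 library the ranges were 163 to 200 for Citri Unshius Pericarpium and 343 to 853 for Yijung-tang at 500 against 20 µg/mL. At 100 against 20 µg/mL they were 0 to 9, 107 to 234, 8 to 30, 582 to 717, 70 to 197 and 1 to 2 for Citri Unshius Pericarpium, Cimicifugae Rhizoma, Bupleuri Radix, Aconiti Lateralis Radix Preparata, Yijung-tang and Banhasasim-tang. Yijung-tang against vehicle gave 3402 to 5383.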
